A study of Rattus norvegicus with 39 samples.

Results

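The proteasome genes described here are the 37 genes, of 14217 named genes on the arrays, whose symbol is Psma, Psmb, Psmc or Psmd followed by a digit. They were read by 48 of the 20826 probe sets that carry a single gene symbol. Of these 37 genes, 36 encode subunits of the proteasome or chaperones that assemble it. The remaining gene, Psmc3ip, encodes a partner of recombination proteins in meiosis and matched by its name alone. The subunits comprised 16 of the 20S core particle and 17 of the 19S regulatory particle, and 3 genes encoded 19S assembly chaperones. Psmb6, a catalytic subunit of the core, shared its probe set with a related gene and has no value here. A probe set shared by Psma3 and a related gene was likewise left out, and Psma3 was read by its other probe set.

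The proteasome degrades proteins tagged with ubiquitin. Its 20S core is a barrel of outer alpha rings, which gate entry, and inner beta rings, which hold the protein-cutting sites, and the 19S particle binds tagged proteins, unfolds them with its ATPases and feeds them into the barrel. Under interferon, and at rest in many immune cells, the catalytic subunits Psmb8, Psmb9 and Psmb10 are built in instead of Psmb5, Psmb6 and Psmb7, which yields the immunoproteasome, a source of peptides for class I antigen presentation. The transcription factors Nfe2l1 and Nfe2l2 (NRF2) are known to drive many subunit genes through antioxidant response elements.

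The study measured RNA from the left lateral liver lobe of 39 rats aged between 5 and 6 weeks, 1 array per animal, 48 h after treatment. In the 6 compound groups of 5 rats each, NMF (taken as N-methylformamide, a liver-injuring solvent) was injected intraperitoneally at 1000 mg/kg in saline, DMN (taken as dimethylnitrosamine, an alkylating liver toxicant) was given orally at 15 mg/kg in water, and ANIT (taken as alpha-naphthylisothiocyanate, a bile duct toxicant) orally at 125 mg/kg in corn oil. Caerulein, a peptide that stimulates the pancreas, was injected intraperitoneally at 50 µg/kg in saline, DNP (taken as dinitrophenol, an uncoupler of mitochondria) was given orally at 15 mg/kg in water, and Roziglitazone, as the labels spell the PPAR gamma agonist, orally at 1000 mg/kg in methylcellulose. The 9 control rats were untreated, without any vehicle, so a difference from them may come from the compound, its vehicle or the route of dosing. Strain and sex are not given in the sources used here. NMF against Caerulein and DMN against DNP share vehicle and route.

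Values are log2 intensities, on which a difference of 1 is a 2-fold change, and a gene was called when the p-value from limma, adjusted over all 14217 genes by the Benjamini-Hochberg method, was under 0.05. The number of arrays limits the precision. All 6 comparisons with control share the 9 control arrays and are given side by side. The hepatocyte markers on the arrays, 9 of the 10 listed, averaged between 12.95 and 14.44 in the controls, far above the spiked-in bacterial transcripts, whose highest mean was 6.47. All 37 proteasome genes averaged above that level too, the lowest being Psmc3ip at 6.99. In 3 arrays the profile over all genes went against the label. ANIT 3 resembled the DMN arrays (r = 0.71) more than its own group (r = 0.30), Roziglitazone 2 resembled the ANIT arrays (r = 0.80, against −0.30 for its own group), and DMN 2 resembled no group above r = 0.12. Counts without these 3 arrays are given beside the main ones. In whole tissue, fewer cells of a type and less RNA per cell cannot be told apart.

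Most of the proteasome genes called in NMF livers were higher. Of the 37 genes, 10 were higher and 2 lower in NMF livers than in controls (27.0% and 5.41%). The background was 3.85% of all genes called higher and 3.63% called lower, so the share of lower genes was near it. The genes that were higher covered the core and the regulatory particle: the alpha ring subunits Psma1, Psma2 and Psma6, the catalytic subunit Psmb5, the base subunits Psmc1, Psmc2 and Psmd2, and the lid subunits Psmd6, Psmd12 and Psmd13. The genes that were lower, Psmb8 and Psmb9, both encode catalytic subunits of the immunoproteasome. The median log2 fold change over the 37 genes was 0.37, and over all genes it was −0.05. With each array centred on its median the counts were 16 higher and 1 lower (over all genes 743 higher and 408 lower, against 547 and 516). Without the 3 arrays in doubt the counts were 10 and 2, with 4.28% of all genes called higher and 4.20% lower. At an unadjusted p under 0.05 there were 24 in all. This count and the later ones at that threshold were made for the 37 genes only. Without the share over all genes they cannot be set against a background.

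**Figure D1:**
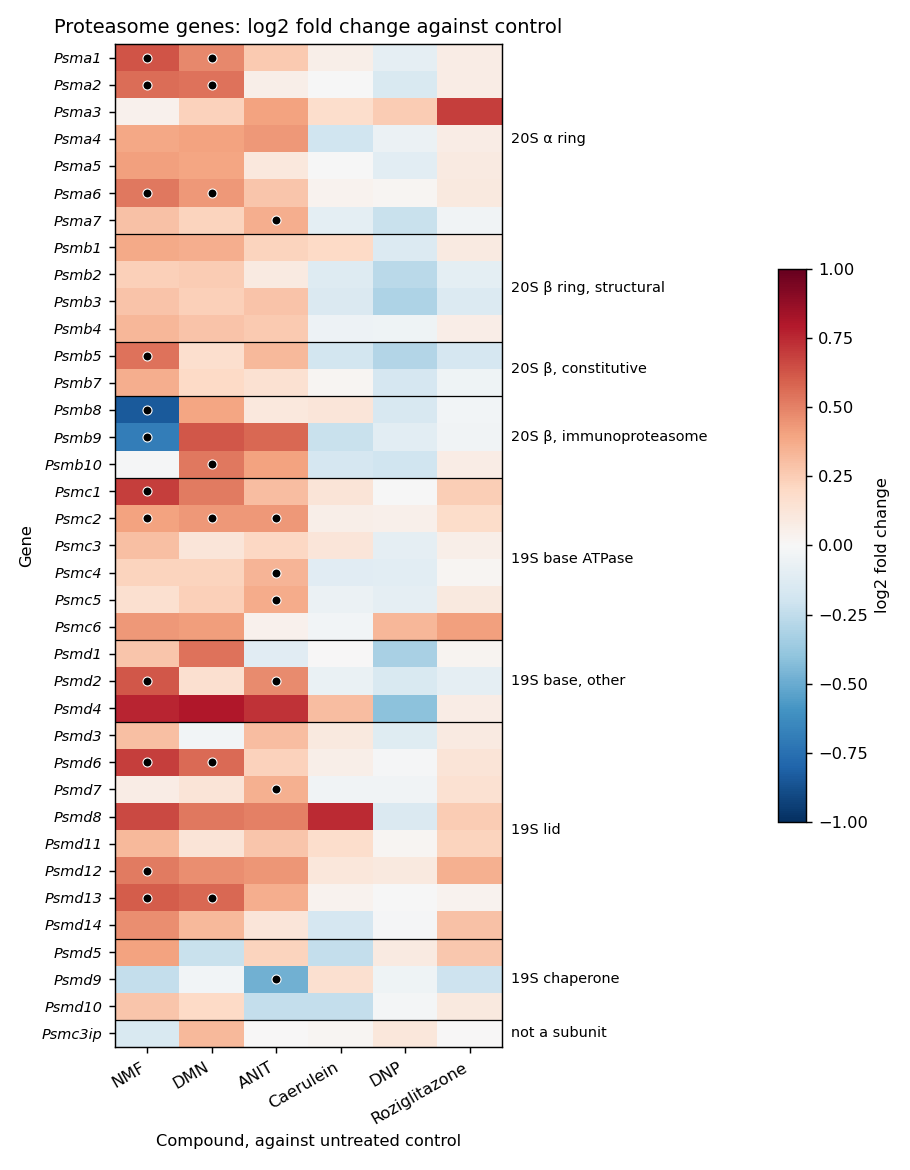
Log2 fold change (colour scale) of the 37 proteasome genes (rows, grouped by role) in each compound group against the untreated controls (columns, 5 arrays per compound and 9 controls). Black dots mark genes called by limma at an adjusted p under 0.05. The NMF column is red in the core and regulatory particle and blue at Psmb8 and Psmb9, and no dot stands in the Caerulein, DNP and Roziglitazone columns.

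Psmd6, a subunit of the 19S lid, had log2 levels of 10.91, 10.82, 11.07, 11.10 and 10.93 in the NMF livers, against a lowest of 9.99, a median of 10.21 and a highest of 10.73 in the 9 controls. The groups did not overlap, and its log2 fold change was 0.69 (SE 0.13, limma adjusted p = 0.000226), or 1.62-fold, higher in 5 of 5 NMF livers than the control mean. Psma1, of the alpha ring, stood at 10.96, 10.88, 10.91, 10.99 and 11.12 in NMF livers, against 9.84, 10.46 and 10.58 (lowest, median and highest) in controls. All its NMF levels lay above every control, and its log2 fold change was 0.63 (SE 0.12, limma adjusted p = 0.000473). Psma6, another alpha ring subunit, read 11.89, 12.01, 11.91, 12.12 and 12.10 in NMF livers, against 11.06, 11.55 and 11.64 in controls. Again no control reached the lowest NMF liver, and the log2 fold change was 0.53 (SE 0.10, limma adjusted p = 0.000699).

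Psma2, of the alpha ring as well, had 11.15, 11.06, 11.02, 11.32 and 11.40 in NMF livers, against 10.14, 10.65 and 10.88 in controls. Psmd13, a lid subunit, had 9.78, 9.61, 9.64, 9.92 and 9.69 in NMF livers, against 8.45, 9.16 and 9.46 in controls. Neither gene overlapped between the groups, with log2 fold changes of 0.56 for Psma2 (SE 0.13, limma adjusted p = 0.00327) and 0.61 for Psmd13 (SE 0.14, limma adjusted p = 0.00342). The other 19S subunits called higher were Psmd2, a scaffold of the base and docking site for ubiquitin carriers (0.62, SE 0.15), the base ATPases Psmc1 (0.69, SE 0.20) and Psmc2 (0.41, SE 0.11), and Psmd12 of the lid (0.52, SE 0.17), with limma adjusted p between 0.00671 and 0.0445. The calls of Psma1, Psma2, Psma6, Psmd2, Psmd6 and Psmd13 held under each of 23 alternative settings, and those of Psmc1, Psmc2 and Psmd12 were lost under 5, 4 and 12 of them.

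**Figure D2:**
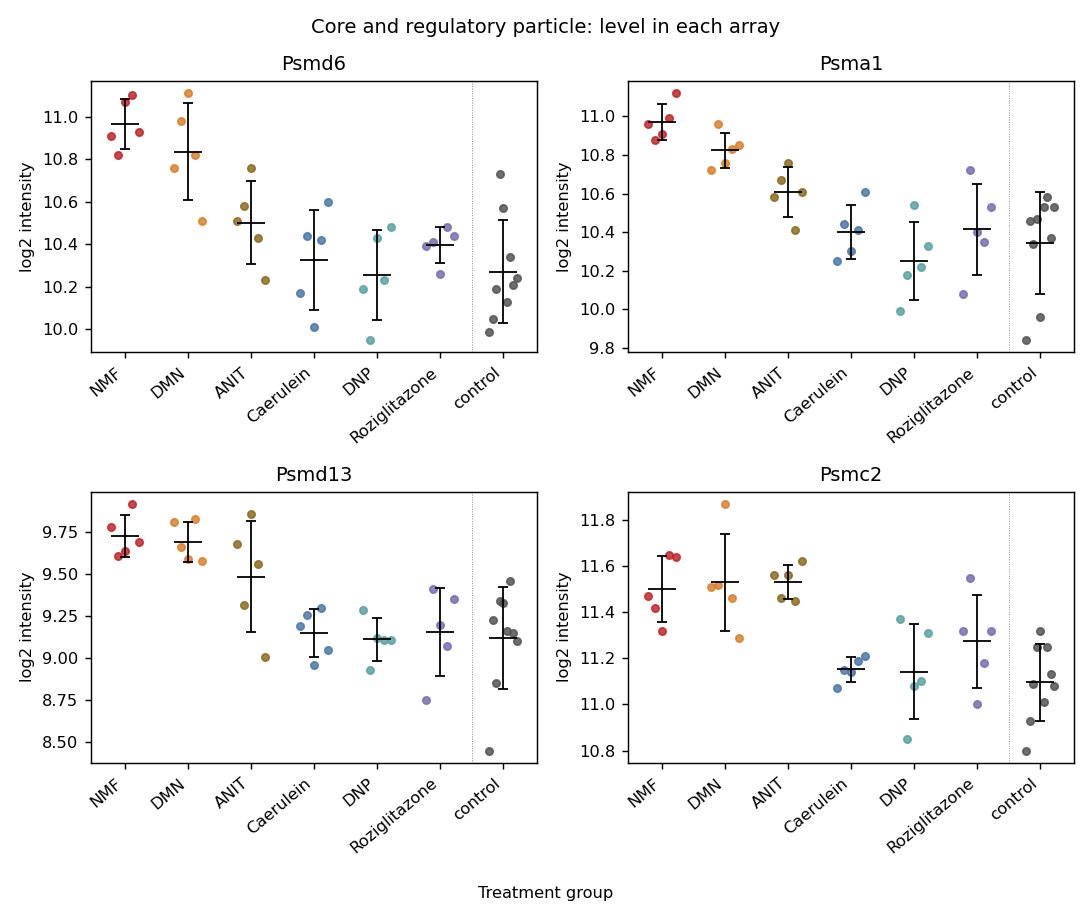
Log2 intensity of Psmd6 and Psmd13 (19S lid), Psma1 (20S alpha ring) and Psmc2 (19S base ATPase) in every array (points, y axis) by treatment group (x axis), with the mean and SD as bars. The 5 NMF points of Psmd6, Psma1 and Psmd13 lie above all 9 control points.

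Of the 5 subunits of the core measured that form its cutting sites, Psmb5 was higher and Psmb8 and Psmb9 were lower in NMF livers, and Psmb7 and Psmb10 did not pass. Psmb5, the constitutive subunit that Psmb8 replaces in the immunoproteasome, had 12.17, 11.87, 11.83, 11.94 and 12.15 in NMF livers, against 11.19, 11.48 and 11.65 in controls, without overlap. Its log2 fold change was 0.54 (SE 0.13, limma adjusted p = 0.00573), read from its brightest probe set, and with the mean of its 3 probe sets it was 0.33 (limma adjusted p = 0.191). Psmb8 had 9.65, 8.84, 10.00, 10.34 and 9.93 in NMF livers, against 9.90, 10.65 and 11.14 in controls. The lowest NMF value was that of NMF 2, and 2 of the 5 NMF livers lay below every control. The log2 fold change of Psmb8 was −0.84 (SE 0.18, limma adjusted p = 0.00188), or 1.79-fold lower, and its call held under each of 23 alternatives.

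Psmb9, the catalytic subunit that takes the place of Psmb6, had 9.56, 8.92, 9.59, 10.10 and 9.74 in NMF livers, against 9.78, 10.24 and 11.30 in controls. NMF 2 was again the lowest, 4 of the 5 NMF livers lay below every control, and NMF 4 overlapped them. Its log2 fold change was −0.69 (SE 0.21, limma adjusted p = 0.0396), and the call was lost under 13 of 23 alternatives, among them the omission of NMF 1, 2, 3 or 5 or of control 1, 2, 3, 7 or 8. Psmb10, which takes the place of Psmb7, had 9.19, 8.67, 9.35, 9.35 and 9.0 in NMF livers, against 8.61, 9.06 and 9.75 in controls, with a log2 fold change of −0.02 (limma adjusted p = 0.980). Psmb7 itself had 11.31, 11.15, 11.11, 11.12 and 11.31 in NMF livers, against 10.18, 10.98 and 11.16 in controls, with a log2 fold change of 0.37 that did not pass (limma adjusted p = 0.0690). Psmb10 lay within the control range in all 5 NMF livers.

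**Figure D3:**
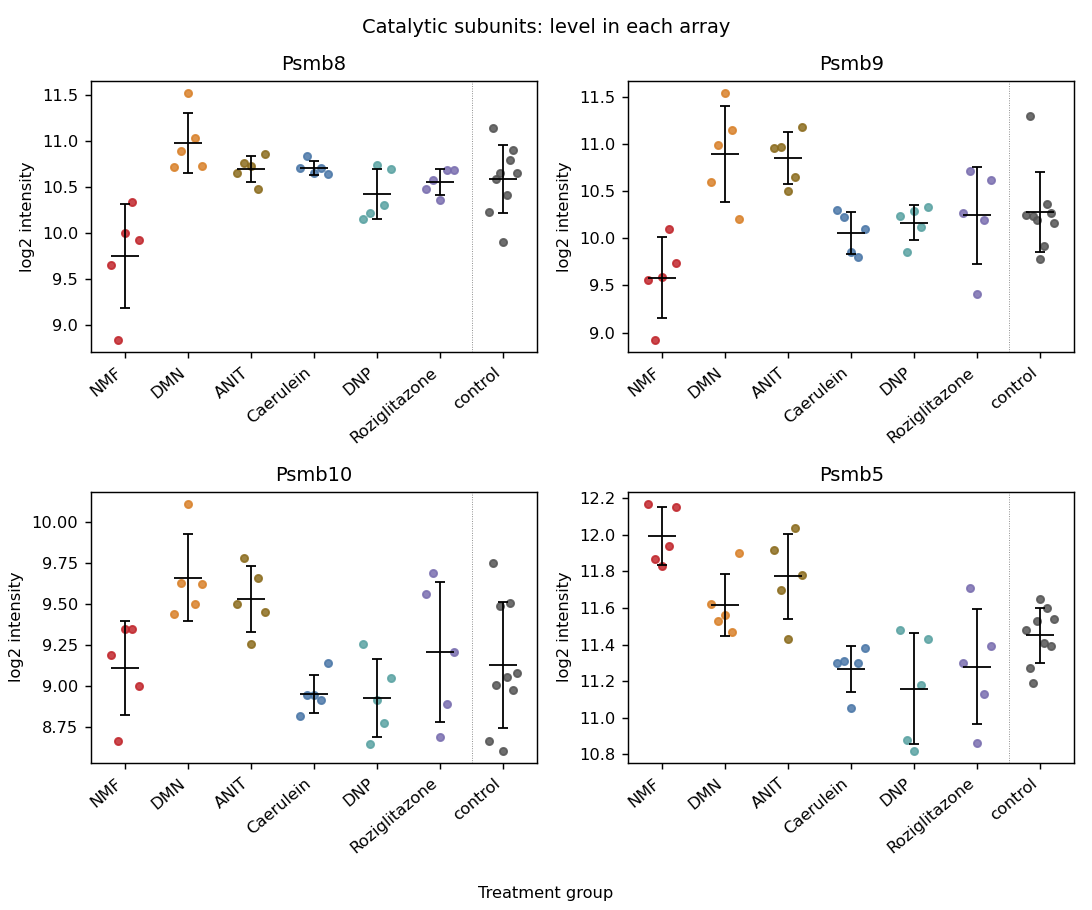
Log2 intensity of the immunoproteasome subunits Psmb8, Psmb9 and Psmb10 and of the constitutive subunit Psmb5 in every array (points, y axis) by treatment group (x axis), with the mean and SD as bars. NMF livers averaged 9.75 for Psmb8 and controls 10.59, and for Psmb5 the NMF livers averaged 11.99 and the controls 11.45.

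The log2 difference Psmb8 minus Psmb5 within each liver compares the transcripts of an immunoproteasome subunit and of its constitutive counterpart, so that a shift common to both genes cancels. It measures transcript levels in whole liver and not the make-up of the complex. Only its change between groups can be read, since the genes have different probes. It averaged −2.24 ± 0.57 in NMF livers (SD, n = 5) and −0.86 ± 0.46 in controls (SD, n = 9), a difference of −1.38. An exact 2-sided permutation test gave p = 0.000999, with 0.0005 as the smallest p it allows, and 0.0120 after adjustment over the 12 such tests. The NMF livers ranged between −3.03 and −1.60 and the controls between −1.75 and −0.13, so a single control lay within the NMF range. Differences of the other 5 compounds from control lay between −0.21 in ANIT and 0.31 in Caerulein, with adjusted p of 0.369 or more by the same exact test. The NMF difference is made up of the log2 fold changes of Psmb8 (−0.84) and Psmb5 (0.54, read from its brightest probe set). Its test uses the same arrays as those calls and is no separate evidence.

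For Psmb10 minus Psmb7 the mean was −2.08 ± 0.32 in NMF livers (SD, n = 5) and −1.70 ± 0.22 in controls (SD, n = 9), and −1.37 ± 0.27 in DMN livers (SD, n = 5). The NMF livers thus averaged 0.38 below the controls and the DMN livers 0.33 above them. Neither difference passed after adjustment (exact permutation test, adjusted p = 0.0939 for both).

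**Figure D4:**
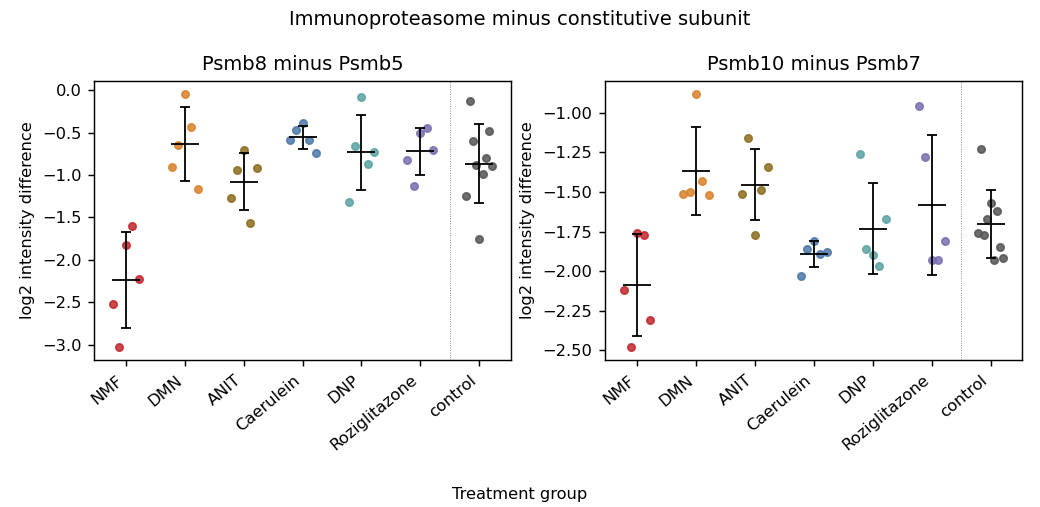
Log2 intensity of Psmb8 minus that of Psmb5 (left) and of Psmb10 minus that of Psmb7 (right) in every array (points, y axis) by treatment group (x axis), with the mean and SD as bars. On the left the NMF livers lie between −3.03 and −1.60 and the controls between −1.75 and −0.13.

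The promoters of the catalytic subunits are shown for Psmb8, Psmb9 and Psmb10, which can replace constitutive subunits, and for Psmb5, the constitutive subunit called higher in NMF. RefSeq windows of 300 bases in the rat build GRCr8, 250 before and 50 after the annotated start, were on hand for 33 of the 37 genes, and the first listed window of each gene was read on both strands. Capitals mark GAAANNGAA, part of the interferon-stimulated response element, in the first 3 and TGACNNNGC, the core of the antioxidant response element, in Psmb5. Psmb8 (chr20:4656982-4657281, minus strand) held the interferon motif once, beginning 3 bases before the start and on the opposite strand. Psmb10 (chr19:50743243-50743542, minus strand) held it 3 times, 2 of them overlapping, Psmb9 (chr20:4668750-4669049, plus strand) held neither motif, and Psmb5 (chr15:32047330-32047629, minus strand) held the antioxidant motif once, beginning 60 bases before the start.
Psmb8: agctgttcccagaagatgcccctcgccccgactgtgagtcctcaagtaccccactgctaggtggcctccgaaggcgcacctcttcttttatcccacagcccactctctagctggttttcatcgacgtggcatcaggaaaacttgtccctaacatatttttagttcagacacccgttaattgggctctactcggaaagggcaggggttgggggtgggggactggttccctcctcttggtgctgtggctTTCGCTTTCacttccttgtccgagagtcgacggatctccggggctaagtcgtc
Psmb9: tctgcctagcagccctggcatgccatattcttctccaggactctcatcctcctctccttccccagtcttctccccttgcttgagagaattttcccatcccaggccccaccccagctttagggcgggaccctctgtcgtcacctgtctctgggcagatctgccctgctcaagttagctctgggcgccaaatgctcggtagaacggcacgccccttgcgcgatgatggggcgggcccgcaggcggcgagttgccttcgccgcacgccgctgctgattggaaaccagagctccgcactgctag
Psmb10: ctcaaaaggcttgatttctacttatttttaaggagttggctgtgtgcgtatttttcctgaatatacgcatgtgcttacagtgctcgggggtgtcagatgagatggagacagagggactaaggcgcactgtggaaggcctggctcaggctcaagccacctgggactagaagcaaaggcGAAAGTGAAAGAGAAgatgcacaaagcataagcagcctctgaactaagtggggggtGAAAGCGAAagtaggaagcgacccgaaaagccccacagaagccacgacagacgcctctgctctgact
Psmb5: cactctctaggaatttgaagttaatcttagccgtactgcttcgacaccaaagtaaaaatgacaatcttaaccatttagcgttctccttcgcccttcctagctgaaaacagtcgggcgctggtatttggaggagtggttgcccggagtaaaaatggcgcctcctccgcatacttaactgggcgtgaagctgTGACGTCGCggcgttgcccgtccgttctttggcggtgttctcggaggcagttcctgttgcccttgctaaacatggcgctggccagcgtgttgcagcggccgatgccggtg

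GAAANNGAA stood in 7 of the 33 windows of proteasome genes and in 7.18% of the 11733 windows of genes on the arrays. TGACNNNGC stood in 6 of the 33 windows, those of Psma3, Psmb2, Psmb5, Psmd1, Psmd3 and Psmd9, and in 14.4% of the windows of genes on the arrays. Of the 10 genes called higher in NMF, 8 had a window and only that of Psmb5 held TGACNNNGC. CCAAT, the box bound by the factor NF-Y, stood in 19 of the 33 windows and in 37.3% of all. A match says that these letters stand in the window and not that a factor binds there. On chromosome 20, Tap1 lies between Psmb8 and Psmb9, and Tap2 lies on the other side of Psmb8. Tap1 and Tap2 encode the subunits of the transporter that carries proteasome peptides into the endoplasmic reticulum.

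Around the immunoproteasome, the list of antigen presentation and interferon response genes had 18 of its 20 genes on the arrays. In NMF livers none of the 18 was higher and 1 was lower, against 3.85% of all genes called higher and 3.63% lower. That gene was B2m, the light chain of class I molecules, which averaged 13.04 ± 0.11 in NMF livers (SD, n = 5) and 13.35 ± 0.06 in controls (SD, n = 9), a log2 fold change of −0.31 (SE 0.08, limma adjusted p = 0.00973). The log2 fold changes of Tap1 (−0.28) and Tap2 (−0.13) in NMF did not pass (limma adjusted p = 0.724 and 0.851). The median over the 18 genes was −0.31.

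Markers of other liver cells moved in the same livers, where 3.85% of all genes were called higher and 3.63% lower. Of 12 macrophage markers on the arrays, of 15 listed, Clec4f (−0.69), Csf1r (−0.65) and C1qc (−0.50) were lower and Gpnmb (2.34) higher in NMF (limma adjusted p of 0.0441 or less). Their summed intensity ran from 10553.0 to 17296.9 in NMF livers with a median of 10794.8, and from 11384.8 to 16747.0 in controls with a median of 14819.5, and 1 of the 12 lay in the range of the spiked-in transcripts in NMF livers and none in controls. None of the 18 lymphocyte markers measured, of 20, was called. Their sums ran from 1068.0 to 1635.0 in NMF livers and from 1385.4 to 1881.3 in controls, and 12 of the 18 lay in the range of the spiked-in transcripts in each group. None of the 9 endothelial markers measured, of 10, was called either. Their median log2 fold change was −0.55, with sums from 3391.9 to 4338.3 in NMF livers and from 3273.4 to 8445.6 in controls. Of 5 bile duct markers on the arrays, of 7 listed, Epcam was higher (1.28, limma adjusted p = 0.00223), and none of the 9 neutrophil markers on the arrays, of 12 listed, was called. Both macrophages and endothelial cells carry immunoproteasome subunits, and their part in the lower Psmb8 and Psmb9 was not tested.

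DMN livers had 7 of the 37 genes higher and none lower than controls, against a background of 5.87% of all genes called higher and 4.53% called lower. They were Psmd6 and Psmd13 of the lid, Psma1, Psma2 and Psma6 of the alpha ring, the ATPase Psmc2 and the immunoproteasome subunit Psmb10. The median log2 fold change over the 37 genes was 0.33, and over all genes −0.06. In a fit of the DMN and control arrays alone 3 were higher, with 3.40% of all genes called higher. Without the 3 arrays in doubt 7 were, with 7.56% of all genes. Of the 37 genes, 23 had an unadjusted p under 0.05.

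Psmd6 read 10.76, 10.98, 11.11, 10.82 and 10.51 in DMN livers, against 9.99, 10.21 and 10.73 (lowest, median and highest) in the 9 controls, with a log2 fold change of 0.56 (SE 0.13, limma adjusted p = 0.00249). Psma2 read 10.88, 11.38, 11.08, 11.10 and 11.44 in DMN livers, against 10.14, 10.65 and 10.88 in controls, with 0.54 (SE 0.13, limma adjusted p = 0.00391). Only DMN 5 overlapped the controls for Psmd6. No DMN liver overlapped them for Psma2, where DMN 1 lay just above the highest control though both round to 10.88. Psma6 read 11.66, 11.91, 12.03, 11.89 and 12.09 in DMN livers, against 11.06, 11.55 and 11.64 in controls, with 0.43 (SE 0.10, limma adjusted p = 0.00465). Psmd13 read 9.81, 9.66, 9.59, 9.83 and 9.58 in DMN livers, against 8.45, 9.16 and 9.46 in controls, with 0.57 (SE 0.14, limma adjusted p = 0.00528). All 5 DMN livers were above every control for both genes. Psma1 read 10.72, 10.96, 10.76, 10.83 and 10.85 in DMN livers, against 9.84, 10.46 and 10.58 in controls, without overlap and with 0.48 (SE 0.12, limma adjusted p = 0.00701).

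Of the immunoproteasome, Psmb10 had 9.44, 9.63, 10.11, 9.50 and 9.62 in DMN livers, against 8.61, 9.06 and 9.75 in controls, with a log2 fold change of 0.53 (SE 0.17, limma adjusted p = 0.0418). The highest value was that of DMN 3, and the call was lost under 14 of 23 alternatives, among them the omission of DMN 2, 3, 4 or 5 or of control 1, 3, 5, 6, 8 or 9. Without DMN 3 the log2 fold change was 0.42 (limma adjusted p = 0.174). Psmb8 had 10.72, 10.89, 11.52, 11.04 and 10.73 in DMN livers (log2 fold change 0.39, limma adjusted p = 0.174). Psmb9 had 10.60, 10.99, 11.54, 11.15 and 10.21 (0.62, limma adjusted p = 0.0569). DMN 3 was the highest of its group for all 3 genes, with Psmb8 and Psmb9 above every control in that liver. DMN 3 also had the largest difference of all arrays, 6.07, between the 3′ and 5′ GAPDH probe sets, a sign of RNA quality described with Psmd4 and Psmd8. Without the 6 arrays in which this difference was over 2, the log2 fold changes in DMN were 0.46 for Psmb10 (limma adjusted p = 0.120), 0.27 for Psmb8 and 0.45 for Psmb9. Psmb5 had 11.62, 11.53, 11.56, 11.47 and 11.90 in DMN livers (0.17, limma adjusted p = 0.485), and Psmb7 had 10.95, 11.13, 10.99, 10.93 and 11.14 (0.20, limma adjusted p = 0.369).

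Markers of macrophages, neutrophils, endothelial cells and bile ducts moved in DMN livers too, where 5.87% of all genes were called higher and 4.53% lower. Of the 12 macrophage markers 3 were higher and 2 lower, with Lyz2 (1.80), Gpnmb (3.21), Clec4f (−0.73) and Cd14 (−1.03) at limma adjusted p of 0.00287 or less. Their summed intensity ran from 13187.6 to 25250.1 in DMN livers and from 11384.8 to 16747.0 in controls, and none lay in the range of the spiked-in transcripts in either group. The neutrophil calgranulin genes S100a8 (2.17) and S100a9 (1.94) were among 4 of 9 neutrophil markers that were higher (limma adjusted p of 0.0427 or less). The neutrophil sums ran from 630.8 to 7439.9 in DMN livers and from 685.3 to 1356.0 in controls, and 5 of the 9 in DMN livers and 6 in controls lay in the range of the spiked-in transcripts. Of the 9 endothelial markers 4 were lower, Stab2 (−2.08), Kdr (−1.63), Stab1 (−1.09) and Tek (−0.75), with limma adjusted p of 0.0121 or less. The endothelial sums ran from 2960.5 to 5143.9 in DMN livers and from 3273.4 to 8445.6 in controls, and none of the 9 lay in the range of the spiked-in transcripts. Of the 5 bile duct markers Spp1 was higher (1.31) and Krt19 lower (−0.78; limma adjusted p of 0.03825 or less), with sums from 594.6 to 1414.9 in DMN livers and from 545.3 to 1045.8 in controls. None of the 18 lymphocyte markers was called, with sums from 1230.3 to 2348.0 in DMN livers and from 1385.4 to 1881.3 in controls. The part of these cells in the levels of the proteasome genes was not tested.

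ANIT livers had 6 of the 37 genes higher and 1 lower than controls, against a background of 8.19% of all genes called higher and 8.29% called lower. Except for Psma7 of the alpha ring, the genes that were higher all belonged to the regulatory particle: the ATPases Psmc2, Psmc4 and Psmc5, the base subunit Psmd2 and the lid subunit Psmd7. The gene that was lower, Psmd9, encodes a chaperone that helps assemble the base. The median log2 fold change over the 37 genes was 0.28, and over all genes −0.09, and 17 genes had an unadjusted p under 0.05. The count of higher genes was 3 without ANIT 2 or without ANIT 4 and 10 without control 5. Without the 3 arrays in doubt it was 9, with 8.9% of all genes called higher. For the omission of single arrays, here and below, no share over all genes is on hand.

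Psmc2, which threads protein into the core as part of the ATPase ring, had 11.56, 11.46, 11.56, 11.45 and 11.62 in ANIT livers, against 10.80, 11.09 and 11.32 (lowest, median and highest) in the 9 controls. The groups did not overlap, with a log2 fold change of 0.43 (SE 0.11, limma adjusted p = 0.00542). It was the one gene called higher in ANIT, DMN (0.44, limma adjusted p = 0.00718) and NMF (0.41, limma adjusted p = 0.0160). These comparisons share their controls, so the 3 calls are not independent.

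Psma7 had 11.68, 11.79, 11.61, 11.92 and 11.88 in ANIT livers, against 11.16, 11.43 and 11.57 in controls, with a log2 fold change of 0.36 (SE 0.11, limma adjusted p = 0.0194). Psmc5 had 10.33, 10.49, 10.65, 10.58 and 10.55 in ANIT livers, against 9.94, 10.11 and 10.38 in controls, with 0.37 (SE 0.11, limma adjusted p = 0.0213). Every ANIT liver lay above all controls for Psma7, and ANIT 1 overlapped them for Psmc5. Psmd2 had 11.23, 10.94, 10.86, 10.85 and 10.75 in ANIT livers, against 9.95, 10.47 and 10.84 in controls, with 0.48 (SE 0.15, limma adjusted p = 0.0269). Psmd7 had 10.79, 10.96, 10.69, 10.78 and 11.16 in ANIT livers, against 10.28, 10.58 and 10.72 in controls, with 0.36 (SE 0.11, limma adjusted p = 0.0274). A single ANIT liver overlapped the controls for each of these genes, ANIT 5 for Psmd2 and ANIT 3 for Psmd7. Psmc4 had the weakest call (0.34, SE 0.11, limma adjusted p = 0.0305), lost under 12 of 23 alternatives, and ANIT 3 was the one ANIT liver within the control range. The call of Psmd7 was lost under 7 of 23 alternatives, that of Psmc5 under 4 and those of Psma7 and Psmd2 under 3 each. Psmc4 and Psmd7 have 2 probe sets each, and with the mean of the probe sets both calls were lost.

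Psmd9 had 9.20, 8.94, 9.26, 9.16 and 8.60 in ANIT livers, against 9.19, 9.50 and 9.72 in controls, with a log2 fold change of −0.48 (SE 0.14, limma adjusted p = 0.0142). ANIT 2, 4 and 5 lay below every control. The lowest value was that of ANIT 5, without which the call was lost. It was also lost in the mean of its 2 probe sets and without the 6 arrays, ANIT 5 among them, whose GAPDH signal was biased to the 3′ end, as described with Psmd4 and Psmd8.

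The catalytic subunits in ANIT livers passed no test. Psmb5 had 11.92, 11.70, 11.43, 12.04 and 11.78 (log2 fold change 0.32, limma adjusted p = 0.0839), and Psmb7 had 11.01, 10.94, 11.03, 11.15 and 10.79 (0.15, limma adjusted p = 0.414). Psmb8 had 10.65, 10.76, 10.73, 10.48 and 10.86 (0.11, limma adjusted p = 0.706). Psmb9 had 10.96, 10.97, 10.50, 10.65 and 11.18 (0.58, limma adjusted p = 0.0608), where control 2 was the one control above them. Psmb10 had 9.50, 9.78, 9.26, 9.66 and 9.45 (0.40, limma adjusted p = 0.107). Their neighbours Tap1 (1.08, limma adjusted p = 0.0200) and Tap2 (0.85, limma adjusted p = 0.0140) were the 2 genes of 18 called higher in the antigen presentation list in ANIT. None of the 18 was called in DMN against control, where their median log2 fold change was 0.32, against 0.15 in ANIT. In DMN against DNP, which share vehicle and route, Tap1, Tap2 and Isg15 of this list were called higher, with 3.85% of all genes. Over all genes, 8.19% were called higher in ANIT.

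Markers of other cell types moved in ANIT livers as well, where 8.19% of all genes were called higher and 8.29% lower. Of the 12 macrophage markers Gpnmb (1.91) and Lyz2 (1.10) were higher and Cd14 (−1.02) and Adgre1 (−0.92) lower (limma adjusted p of 0.0355 or less). Their sums ran from 13129.3 to 18260.8 in ANIT livers and from 11384.8 to 16747.0 in controls. Of the 18 lymphocyte markers Cd8a (−0.63), Lck (−0.54) and Cd5 (−0.54) were lower (limma adjusted p of 0.04995 or less), with sums from 1166.6 to 1366.8 in ANIT livers and from 1385.4 to 1881.3 in controls. These sums did not overlap, and 13 of the 18 markers in ANIT livers and 12 in controls lay in the range of the spiked-in transcripts. Of the 9 endothelial markers Kdr (−1.08) and Stab2 (−0.94) were lower (limma adjusted p of 0.0253 or less), with sums from 2546.3 to 4758.3 in ANIT livers and from 3273.4 to 8445.6 in controls. Of the 5 bile duct markers Epcam was higher (1.23) and Krt19 lower (−0.90; limma adjusted p of 0.0108 or less), with sums from 748.8 to 1453.8 in ANIT livers and from 545.3 to 1045.8 in controls, and no neutrophil marker was called. The part of these cells in the levels of the proteasome genes was not tested.

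No proteasome gene was called in Caerulein, DNP or Roziglitazone, where the background was also 0% in each direction of each comparison, as limma called no gene of the 14217. Without the 3 arrays in doubt, again no gene was called in these comparisons. At an unadjusted p under 0.05 the counts were 0 of 37 genes in Caerulein, 4 in DNP and 3 in Roziglitazone. The median log2 fold changes over the 37 genes were 0.01 in Caerulein, −0.09 in DNP and 0.08 in Roziglitazone, and over all genes −0.02, 0.04 and −0.06.

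For the catalytic subunits, Caerulein livers read 11.30, 11.31, 11.05, 11.30 and 11.38 for Psmb5, 10.85, 10.81, 10.76, 10.81 and 11.02 for Psmb7, 10.71, 10.84, 10.66, 10.71 and 10.64 for Psmb8, 10.30, 10.23, 9.85, 9.80 and 10.10 for Psmb9, and 8.82, 8.95, 8.95, 8.92 and 9.14 for Psmb10. DNP livers read 11.48, 10.88, 10.82, 11.18 and 11.43 for Psmb5, 10.52, 10.51, 10.82, 10.75 and 10.72 for Psmb7, 10.16, 10.22, 10.74, 10.31 and 10.70 for Psmb8, 10.24, 9.86, 10.29, 10.12 and 10.33 for Psmb9, and 9.26, 8.65, 8.92, 8.78 and 9.05 for Psmb10. Roziglitazone livers read 11.30, 11.71, 10.86, 11.13 and 11.39 for Psmb5, 10.52, 10.97, 10.62, 10.82 and 11.02 for Psmb7, 10.48, 10.58, 10.36, 10.69 and 10.69 for Psmb8, 10.27, 10.72, 9.41, 10.20 and 10.62 for Psmb9, and 9.56, 9.69, 8.69, 8.89 and 9.21 for Psmb10. All these values lay within the range of the 9 controls or above it, except for Psmb5 in Caerulein 3, in DNP 2, 3 and 4 and in Roziglitazone 3 and 4, and for Psmb9 in Roziglitazone 3. Roziglitazone 2, one of the arrays in doubt, had the highest mean over all subunits in its group, 0.30 above the control mean, where the lowest of the group lay at −0.08.

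NMF with Caerulein, and DMN with DNP, shared vehicle and route. In NMF against Caerulein, 9 of the 37 genes were higher and 1 lower, against a background of 3.43% of all genes called higher and 2.06% called lower. Those higher were Psma1, Psma2, Psma6, Psmb3, Psmb5, Psmd2, Psmd6, Psmd13 and Psmd14, led by Psmb5 with a log2 fold change of 0.72 (SE 0.15, limma adjusted p = 0.00144), and the one lower was Psmb8 (−0.96, SE 0.20, limma adjusted p = 0.00233). Caerulein livers overlapped NMF livers neither for Psmb5 nor for Psmb8. Psmb9 did not pass (−0.47, limma adjusted p = 0.315). The calls of Psmb3, Psmd14 and Psmd13 were lost under 10, 9 and 5 of 19 alternatives, and those of Psma2 and Psmd2 under 2 and 1. Psmd14 was lost, among others, with the mean of its 3 probe sets. The remaining calls held under each of the 19. Without Caerulein 5 the count of higher genes was 5. Without the 3 arrays in doubt it was 10 (4.10% of all genes), and centred arrays gave 14 (4.54% of all genes). The median log2 fold change was 0.38 over the 37 genes and −0.05 over all genes.

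In DMN against DNP, 13 of the 37 genes were higher and none lower, against a background of 3.85% of all genes called higher and 3.04% called lower. They included 5 of the 7 alpha ring subunits (Psma1, Psma2, Psma5, Psma6 and Psma7), 3 of the 4 structural beta subunits (Psmb1, Psmb2 and Psmb3), Psmb10, Psmc2, Psmd1, Psmd6 and Psmd13. Psma2 led with a log2 fold change of 0.70 (SE 0.14, limma adjusted p = 0.00195), followed by Psmb3 (0.55, SE 0.13, limma adjusted p = 0.00630), and the median was 0.42 over the 37 genes and −0.10 over all genes. This count rests on few arrays and on the pooled spread. It was 7 without DMN 3, 5 without DNP 2 and 6 without DNP 3. Without the 3 arrays in doubt it was 11, with 5.91% of all genes called higher. It was 4 without the arrays with 3′ bias (2.56% of all genes). In a fit of the DMN and DNP arrays alone it was 0 (1.29% of all genes).

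The liver toxicants were also set against each other. In NMF against DMN, none of the 37 genes was higher and 2 were lower, against a background of 1.66% of all genes called higher and 3% called lower, and 7 had an unadjusted p under 0.05. Without the 3 arrays in doubt the counts were also 0 and 2, while over all genes 379 were higher and 649 lower. With array weights 1 gene was higher (794 over all genes). The genes that were lower were Psmb8 (−1.23, SE 0.20, limma adjusted p = 0.000128) and Psmb9 (−1.32, SE 0.24, limma adjusted p = 0.000578). No NMF liver overlapped a DMN liver for either gene, and both calls held under each of 19 alternatives. Psmb10 differed by −0.54 (limma adjusted p = 0.113).

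In NMF against ANIT, 2 genes were higher and 2 lower, against a background of 2.86% of all genes called higher and 3.76% called lower. The counts were the same without the 3 arrays in doubt, where 3.75% of all genes were called higher and 5.61% lower. Psmb9 (−1.27, SE 0.24, limma adjusted p = 0.000971) and Psmb8 (−0.95, SE 0.20, limma adjusted p = 0.00307) were lower without overlap and held under each of 19 alternatives. Their neighbours Tap1 (−1.36, limma adjusted p = 0.0202) and Tap2 (−0.98, limma adjusted p = 0.0252) were lower as well. Psma2 (0.51, SE 0.14, limma adjusted p = 0.0268) and Psmd6 (0.46, SE 0.14, limma adjusted p = 0.0398) were higher, and those calls were lost under 6 and 11 of 19 alternatives. Among them, 1 gene was higher without ANIT 1, ANIT 4, NMF 1 or NMF 3 and none without ANIT 2, ANIT 5, NMF 4 or NMF 5.

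ANIT and DMN differed in none of the 37 genes, against a background of 1.46% of all genes called higher and 1.07% called lower. Without the 3 arrays in doubt it was again none, while over all genes the counts were 580 higher and 536 lower, against 207 and 152 with them. At an unadjusted p under 0.05 there were 5, and 1 gene was lower under a further quantile normalization, without the dimmest genes, with array weights, or without ANIT 3, DMN 1 or DMN 3.

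By role, the alpha ring had 3 of 7 genes higher in NMF, 3 in DMN and 1 in ANIT, with median log2 fold changes of 0.41, 0.40 and 0.28. Over all genes, 3.85% were called higher in NMF, 5.87% in DMN and 8.19% in ANIT. The structural beta subunits Psmb1, Psmb2, Psmb3 and Psmb4 had none of 4 called in any comparison with control, with medians of 0.31 in NMF, 0.27 in DMN and 0.24 in ANIT. Psmb4, for example, had 0.33 in NMF (SE 0.11, limma adjusted p = 0.0590). The 6 base ATPases had 2 higher in NMF, 1 in DMN and 3 in ANIT. The lid had 3 of 8 higher in NMF, 2 in DMN and 1 in ANIT. Over the 6 comparisons with control, 15 of the 37 genes were higher at least once, 3 lower at least once and 19 were never called. Over all 14217 genes, 13.4% were higher at least once, 11.6% lower at least once and 24.8% called in either direction. No proteasome gene was higher in one and lower in another. The 19 were Psma3, Psma4, Psma5, Psmb1, Psmb2, Psmb3, Psmb4, Psmb7, Psmc3, Psmc6, Psmd1, Psmd3, Psmd4, Psmd5, Psmd8, Psmd10, Psmd11, Psmd14 and Psmc3ip.

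Among the genes never called, Psmd4 and Psmd8 had large fold changes with wide errors. Psmd4, the ubiquitin receptor of the base, was 0.76 higher in NMF (SE 0.37, limma adjusted p = 0.243), 0.80 in DMN and 0.72 in ANIT. Its level was 6.94 in DNP 1, 7.78 in Roziglitazone 1 and 7.26 in control 5, while every other array read 9.26 or more. Psmd8, of the lid, read 6.97 in control 5, 7.79 in DNP 1, 8.60 in Roziglitazone 1, 9.54 in DMN 3, 9.75 in ANIT 5, 9.78 in NMF 3, 9.80 in control 4 and 9.95 in control 1, and 10.49 or more elsewhere. On the arrays, GAPDH is read by a 3′ and a 5′ probe set, and their log2 difference is large where RNA was degraded or copied short. It was over 2 in 6 arrays, ANIT 5, DMN 3, DNP 1, NMF 3, Roziglitazone 1 and control 4, with 2.33 the lowest of the 6. The highest of the others was 1.75 in control 5, followed by 1.37 in control 1, and the part of this bias in the low Psmd4 and Psmd8 values was not tested.

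**Figure D5:**
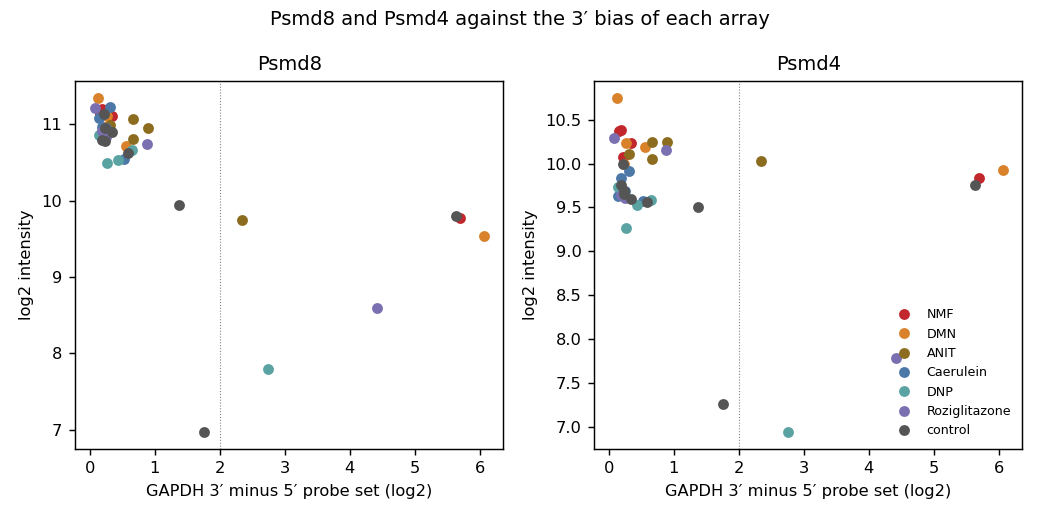
Log2 intensity of Psmd8 (left) and Psmd4 (right) in every array (y axis) against the log2 difference between the 3′ and 5′ GAPDH probe sets of that array (x axis), coloured by group, with a dotted line at 2. Psmd8 is at 9.80 or lower in all 6 arrays right of the line and in control 5, which lies just left of it.

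Genes that work with the proteasome were read as lists. Of 8 assembly factors on the arrays, of 9 listed, Psmg2, a chaperone of the alpha ring, was higher in NMF (0.33, SE 0.11, limma adjusted p = 0.0488). Psmg1, its partner in the chaperone, was lower in ANIT (−0.79, SE 0.16, limma adjusted p = 0.000957), as was Psmd9. None was called in DMN. Of 11 activators and associated proteins, Usp14, a deubiquitinase of the 19S particle (0.81, SE 0.22), Ecpas, which binds the 19S particle (0.87, SE 0.24), and Txnl1, a thioredoxin bound to it (0.54, SE 0.14), were higher in ANIT (limma adjusted p of 0.0105 or less). None of the 11 was called in DMN or NMF, including Psme1 and Psme2, which form the interferon-induced cap of the core. The shares of all genes were 8.19% called higher and 8.29% lower in ANIT, and 3.85% called higher in NMF.

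Of 10 transcription factors and processing factors of proteasome genes, Nfe2l1 was higher in ANIT (0.78, SE 0.21, limma adjusted p = 0.00862). Nfe2l2 (1.19, SE 0.30, limma adjusted p = 0.00842) and its partner Maff (1.28, SE 0.40, limma adjusted p = 0.0363) were higher in DMN, and none was called in NMF. Of 13 genes of ubiquitin and its shuttling on the arrays, of 20 listed, Uba6 and Rad23b were higher in ANIT, Stub1 in DMN and none in NMF. Called higher among all genes were 8.19% in ANIT and 5.87% in DMN. A single call in a list of 10 or 13 genes is close to these shares.

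Of 17 NRF2 targets outside the proteasome on the arrays, of 18 listed, 8 were higher and 1 lower in NMF. Nqo1, which detoxifies quinones, was higher by 2.17 (SE 0.29), Ugdh, which makes the sugar donor for glucuronidation, by 1.22 (SE 0.17), Abcc3, an export pump, by 4.72 (SE 0.70), and Gclm, of glutathione synthesis, by 1.69 (SE 0.25) on the log2 scale, with limma adjusted p of 1.97e-05 or less. The gene that was lower, named here after its values were seen, was Me1, which makes NADPH (−0.92, SE 0.26, limma adjusted p = 0.0200). In DMN livers 3 of the 17 were higher and 1 lower, and in ANIT livers 5 were higher and 1 lower. The lower gene was Me1 in both, and Abcc3 was among the higher genes in ANIT, also named after the values were seen. Over all genes, 3.85% were called higher in NMF, 5.87% in DMN and 8.19% in ANIT. The median over the 17 was 0.75 in NMF, −0.13 in DMN and 0.33 in ANIT.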

How the data were processed

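Liver RNA of 39 rats was measured on 39 Affymetrix arrays. The authors deposited linear intensities per probe set, and per the submitters' processing notes affy and RMA were among the tools (versions and order are not given in the sources used here). The deposited intensities ranged between 5.4 and 23152.1, and array means between 347.8 and 363.4. Their log2 was taken here. Of 31099 probe sets, 20826 had 1 gene symbol in the platform annotation, 436 had several and 9780 none. The probe set with the highest mean stood for each of 14217 genes (4525 had more than 1). A single limma fit (3.58.1, R 4.3.3) held all 7 groups, with Benjamini-Hochberg adjustment over all genes in each of 11 comparisons, and was tested on simulated data. Ratios were compared by exact permutation tests over samples; 18 were planned and 12 run, since Psmb6 has no value. Values per array are given for up to 5 called genes per direction with the smallest adjusted p, and in all groups for Psmb5 to Psmb10, and up to 4 called genes per list and comparison are named. Members and lists were chosen with earlier results of these data known. Nothing in the labels pairs animals across groups. Alternatives were centring, a further quantile normalization, a filter on the 30% dimmest genes, the mean of all probe sets, array weights, a replicate block, fits of the compared groups alone, and omission of single arrays, of 3 doubted arrays and, added after seeing the data, of 6 arrays with 3′ bias. The number of arrays limits the precision.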

Additional observations from a re-analysis of the deposited data

Results flagged for a closer look

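Dixon's test marked 13 of 203 sets of values, 6.40%, in which 1 array stood far from the others of its group; chance marks about 1 in 20. The mean over all subunits, relative to the control mean, was 0.14 in ANIT 5, and between 0.27 and 0.29 in the other ANIT livers. The alpha ring mean was −0.27 in DNP 2, and between −0.03 and 0.02 in the other DNP livers. Psmc4 stood at 10.51 in ANIT 3, below the other ANIT livers, and at 10.56 in Caerulein 5, above the other Caerulein livers. Psma6 stood low at 11.57 in ANIT 1 and at 11.06 in control 1. Psmb5 was low in Caerulein 3 at 11.05. Psmb10 was high in DMN 3 at 10.11, the liver that was also highest of its group for Psmb8 and Psmb9, and Psmb3 was high in DMN 5 at 11.90. Psmc5 was high in Roziglitazone 2 at 10.61. Among controls, Psmb9 was high in control 2 at 11.30 and Psmb2 in control 4 at 11.63, and Psmb3 was low in control 3 at 11.00. These are log2 levels or differences, and the causes were not tested. DMN 3, ANIT 5 and control 4 are among the 6 arrays with 3′ bias, with log2 differences between the GAPDH 3′ and 5′ probe sets of 6.07, 2.33 and 5.64, and ANIT 3 and Roziglitazone 2 are among the 3 arrays in doubt.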

How the results depend on the processing

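None of the calls of proteasome genes reversed under the alternatives run. Each alternative below, apart from leaving out 1 array at a time, moved a count by more than 1.5 times, and the cause was not tested. The ranges for leaving out 1 array, given last, also include counts that moved less, as for higher genes in DMN and NMF. Array weights gave 18 genes higher in ANIT, 14 in DMN and 17 in NMF against Caerulein, with 3 lower there, 5 lower in NMF against ANIT, 1 higher in NMF against DMN and 1 lower in ANIT against DMN. Array weights raised the calls over all genes too, to 17.7% higher in ANIT (8.19% without weights), 12.0% in DMN (5.87%) and 7.17% in NMF against Caerulein (3.43%). They called 5.36% of all genes lower in NMF against Caerulein (2.06% without weights). They called 11.5% of all genes lower in NMF against ANIT, 794 of 14217 higher in NMF against DMN and 5.85% lower in ANIT against DMN. Centring on the median gave 16 higher and 1 lower in NMF and 14 higher in NMF against Caerulein (over all genes 743 and 408 in NMF, and 646 higher in NMF against Caerulein). Another quantile normalization, or leaving out the 30% dimmest genes, gave 1 lower in ANIT against DMN (1.32% and 1.70% of all genes). The mean of all probe sets gave 0 lower in ANIT (8.27% of all genes). Without the 6 arrays with 3′ bias there were 0 lower in ANIT, 1 lower in NMF, 4 higher in DMN against DNP and 0 higher in NMF against ANIT. The shares of all genes there were 6.75%, 4.29%, 2.56% and 1.79%, in the same order. Fits of the compared groups alone, with fewer samples, gave 3 higher in DMN, 1 lower in NMF, 0 higher in DMN against DNP and 0 higher in NMF against ANIT. In these fits the shares of all genes were 3.40%, 3.21%, 1.29% and 2.37%, in the same order. All same-numbered arrays correlated above 0.1 in 1 of 21 pairs of groups, so the numbers were not taken as pairing. Of single pairs, however, 55.2% of same-numbered and 27.4% of unlike-numbered arrays correlated above 0.1. Among numbers 1 to 5, an array correlated best with its own number in another group in 84 of 210 cases (40%), where chance gives 1 in 5. This is a hint from the data that numbers may share something, which the main tests did not take into account. With the replicate number as a block there were 0 lower in ANIT, 1 lower in NMF and 1 higher in NMF against ANIT, and the NMF difference in Psmb8 minus Psmb5 was −1.32, which no longer passed (5 pairs are too few for a paired exact test to pass). Over all genes, the block called 6.9% lower in ANIT, 3.50% lower in NMF and 3.16% higher in NMF against ANIT. Against control, the block lost the calls of Psmb9, Psmc2 and Psmd12 in NMF, Psmb10 in DMN, and Psmc4, Psmc5, Psmd2, Psmd7 and Psmd9 in ANIT. Numbers 6 to 9 occur only among controls, so under the block these controls add nothing to a difference from control. Whether these calls were lost through fewer controls or through shared numbers cannot be told apart. Leaving out 1 array at a time, the count of higher genes ran between 3 and 10 in ANIT, 5 and 9 in DMN, 7 and 12 in NMF, 5 and 8 in NMF against Caerulein, 5 and 13 in DMN against DNP and 0 and 2 in NMF against ANIT. The count of lower genes ran between 0 and 1 in ANIT, 1 and 2 in NMF and 0 and 1 in ANIT against DMN. Psmb10 minus Psmb7 ran between 0.17 and 0.32 in ANIT and between 0.21 and 0.39 in DMN, and passed in each only without control 2. The NMF difference in Psmb8 minus Psmb5 ran between −1.54 and −1.18. Genes near the level of the spiked-in transcripts are limited by signal.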
